A study of Homo sapiens with 12 samples.

Results

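MYC and the MAX network are a set of transcription factors that share DNA sites and partners. The 8 genes taken were MYC, MAX, MXD1, MXD3, MXD4, MXI1, MNT and MLX, and every probe set whose entry in the probe table names exactly 1 of them was used. That measured 7 of the 8, out of 19775 genes with such a probe set, through 19 of the 54613 probe sets on the array besides controls: 1 for MYC, 5 for MAX, 3 for MXD1, 1 for MXD3, 1 for MXI1, 2 for MNT and 6 for MLX. MXD4 had 0, since its 3 probe sets share their entry with another gene, and it is not analysed here. Of the 19, 17 lay above the filter on dim probe sets and were tested.

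MYC is a short-lived basic helix-loop-helix leucine zipper protein that binds E-box DNA as a dimer with MAX and drives genes of growth and ribosome production. The MXD proteins, MXI1 and MNT compete for MAX and repress the same sites through SIN3 and histone deacetylases, and several of the MXD genes are known to be induced as cells stop dividing. MLX is a relative of MAX that pairs with the glucose-sensing factors MLXIP (MondoA) and MLXIPL (ChREBP), whose best known targets include TXNIP and ARRDC4.

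The cells were A549, a human lung adenocarcinoma line, in 4 groups of 3 biological replicates. Anti-EpCAM cultures were given 100 µg/ml of a monoclonal antibody to EpCAM over 48 h, which the labels describe as anti-mouse without saying whether mouse is its host or its target, and untreated cultures are given with no control antibody. All cultures were loaded with Hoechst 33342, a DNA dye, over 90 min (5 µg/ml), and flow sorting gave the dye-exporting side population (SP) and the other, non-SP, cells. The groups are anti-EpCAM SP, anti-EpCAM non-SP, untreated SP and untreated non-SP. All come from 1 cell line, so nothing here speaks of other tumours.

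Values are RMA log2 values, and SP and non-SP arrays that share treatment and number were joined as a pair, 6 pairs in all. Medians of the arrays ran from 5.58 to 6.24, and the arrays of a pair had nearly the same value distribution while those of different pairs did not. The epithelial markers KRT8, KRT18, KRT19, EPCAM and CDH1 lay between 8.73 and 14.78 on every array. Of these 5, 0 passed over the pairs, with 4 estimates higher in SP and 1 lower. EPCAM had 0.26 ± 0.06, with SP higher in 6 of 6 pairs (limma adjusted p = 0.111). Fitted over 1 probe set per gene, EPCAM passed (limma adjusted p = 0.0435). Of the leukocyte markers reported here, PTPRC had no tested probe set, and CD14 and CD3E each lay between 6.23 and 7.42. The log2 values of CD14 and CD3E added together were 13.0 to 14.5 in SP arrays and 12.8 to 14.2 in non-SP arrays. Of the endothelial markers only PECAM1 was tested, at 6.31 to 7.16 in SP arrays and 6.32 to 7.06 in non-SP arrays. Of 4 fibroblast markers, all tested, COL1A1 was lower in SP at -0.57 ± 0.09 (limma adjusted p = 0.0483), a call lost when any 1 pair was left out (adjusted p = 0.0673 to 0.203). The other fibroblast markers did not pass, with 0.13 ± 0.06 for COL1A2, -0.065 ± 0.080 for PDGFRB and -0.052 ± 0.097 for DCN. Single fibroblast markers lay between 4.96 and 10.64. Their log2 values added together were 24.0 to 28.8 in SP arrays and 24.8 to 29.5 in non-SP arrays. The part of COL1A1 in the results below was not tested. Of 4 alveolar type II markers 0 passed, with levels of 5.17 to 8.10. In RNA from a sorted population, fewer cells of a kind and less RNA per cell cannot be told apart.

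Promoters of 2 members, MLX and MNT, and of both best known MLX targets are printed because ARRDC4 is the gene that differed most below. They are RefSeq windows of GRCh38.p14, given 5′ to 3′ on the gene's strand and ending 50 bases after the start of the gene. Capitals mark the motif CACGNG on either strand, which includes the palindromic E-box CACGTG. The windows are chr17:42566850-42567149 (plus strand) for MLX, chr17:2401011-2401310 (minus strand) for MNT, chr15:97960453-97960752 (plus strand) for ARRDC4 and chr1:145996530-145996829 (minus strand) for TXNIP, the first of its 2 windows.
MLX: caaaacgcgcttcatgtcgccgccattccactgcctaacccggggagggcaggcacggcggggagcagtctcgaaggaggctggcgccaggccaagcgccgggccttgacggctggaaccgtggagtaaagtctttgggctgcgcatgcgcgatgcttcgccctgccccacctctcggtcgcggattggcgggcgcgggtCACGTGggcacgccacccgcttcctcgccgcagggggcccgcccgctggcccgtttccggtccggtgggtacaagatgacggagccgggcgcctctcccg
MNT: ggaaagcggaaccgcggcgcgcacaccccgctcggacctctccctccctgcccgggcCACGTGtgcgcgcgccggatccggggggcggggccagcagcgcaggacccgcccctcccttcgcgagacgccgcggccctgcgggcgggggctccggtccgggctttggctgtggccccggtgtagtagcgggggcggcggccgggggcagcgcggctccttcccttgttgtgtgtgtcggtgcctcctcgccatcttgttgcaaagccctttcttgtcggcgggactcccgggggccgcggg
ARRDC4: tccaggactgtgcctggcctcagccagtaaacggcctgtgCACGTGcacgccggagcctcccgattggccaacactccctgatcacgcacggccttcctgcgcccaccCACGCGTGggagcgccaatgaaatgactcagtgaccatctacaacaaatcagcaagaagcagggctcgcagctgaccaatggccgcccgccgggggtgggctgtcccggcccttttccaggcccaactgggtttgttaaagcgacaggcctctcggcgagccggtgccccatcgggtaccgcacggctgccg
TXNIP: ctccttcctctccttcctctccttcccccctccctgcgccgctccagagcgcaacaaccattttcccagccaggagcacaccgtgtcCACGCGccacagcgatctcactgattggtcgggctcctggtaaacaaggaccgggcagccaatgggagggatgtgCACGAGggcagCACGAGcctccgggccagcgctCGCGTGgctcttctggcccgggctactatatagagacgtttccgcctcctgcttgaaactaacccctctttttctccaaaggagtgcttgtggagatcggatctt
The E-box CACGTG occurs once in each of the MLX, MNT and ARRDC4 windows, at 50, 193 and 210 bases before the gene's start, and in the window of MXD4 at 238 bases. It was found in 7.26% of all 35116 promoter windows. The windows of MAX, MXD1, MXD3 and MXI1 do not hold the letters CACGTG. The wider motif CACGNG was found 4 times in the TXNIP window and 3 times in that of ARRDC4, 2 of these overlapping, and in 30.5% of all windows. Windows of MAX, MXD3 and MXI1 held it too, while the MXD1 window and the other TXNIP window held neither motif. A match is only a stretch of letters, and binding was not measured.

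The SP and non-SP fractions were compared first. MYC, the activator of the set, was higher in the SP array of all 6 pairs, as were 5.01% of all probe sets tested. An MXD1 probe set, for a repressor that competes with MYC, was lower in all 6, as were 4.53%. The other tested MXD1 probe set was higher in 4 pairs and lower in 1. The tested probe set of MNT, also a repressor, had a positive estimate (0.082). Neither the MYC nor the MXD1 differences reached an adjusted p under 0.05 in limma over all 32768 probe sets tested. In that test 0 of the 17 probe sets passed, against 0.641% of all probe sets tested (0.156% higher and 0.485% lower in SP). At an unadjusted p under 0.05 there were 4 of 17, with 1 higher and 3 lower in SP, against 14.3% of all (7.31% higher and 6.97% lower). The median difference over the 17 was 0.024, and over all probe sets tested 0.0060, on the log2 scale.

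MYC (202431_s_at) read 12.62, 13.16 and 12.75 in the anti-EpCAM SP arrays of pairs 1, 2 and 3, against 12.33, 12.81 and 12.21 in their non-SP arrays. In untreated cells it read 12.75, 12.67 and 13.02 in SP arrays, against 12.38, 12.43 and 12.42 in non-SP arrays. Untreated SP arrays thus all lay above untreated non-SP arrays, as for 2.02% of all probe sets tested. In anti-EpCAM cells the deposited values of the fractions overlapped because both arrays of pair 2 were high. Of all probe sets tested, 0.54% had anti-EpCAM SP arrays all above. After quantile normalization over the 12 arrays MYC did not overlap there either. It then read 12.76, 13.02 and 12.67 in anti-EpCAM SP arrays, against 12.40, 12.65 and 12.22 in anti-EpCAM non-SP arrays. Within pairs the difference of deposited values ran from 0.24 in untreated pair 2 to 0.60 in untreated pair 3. Of all probe sets tested, 5.01% were higher in SP in all 6 pairs.

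The mean MYC difference was 0.40 ± 0.07 in log2 units (SE, n = 6 pairs), a 1.32-fold higher level, with a 95% interval of 0.25 to 0.55 and a limma adjusted p = 0.0512. When each gene was represented by 1 probe set and p was adjusted over 14649 genes, the same estimate had a limma adjusted p = 0.0133, and MYC passed among 2.47% of genes (1.02% higher in SP). It also passed after quantile normalization over the 12 arrays (difference 0.38, adjusted p = 0.0449) and with a stricter filter on dim probe sets (adjusted p = 0.0467). With an intensity trend in the variance limma gave adjusted p = 0.286. With the 12 arrays taken as independent and no replicate block, the SE was 0.14 and the adjusted p = 1.00, with an unadjusted p = 0.0158. Leaving out 1 pair at a time kept the estimate between 0.35 and 0.44, with adjusted p = 0.0560 to 0.214. MYC was already known from earlier work on these arrays to be higher in SP, so its choice as a member is no separate evidence of direction.

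**Figure D1:**
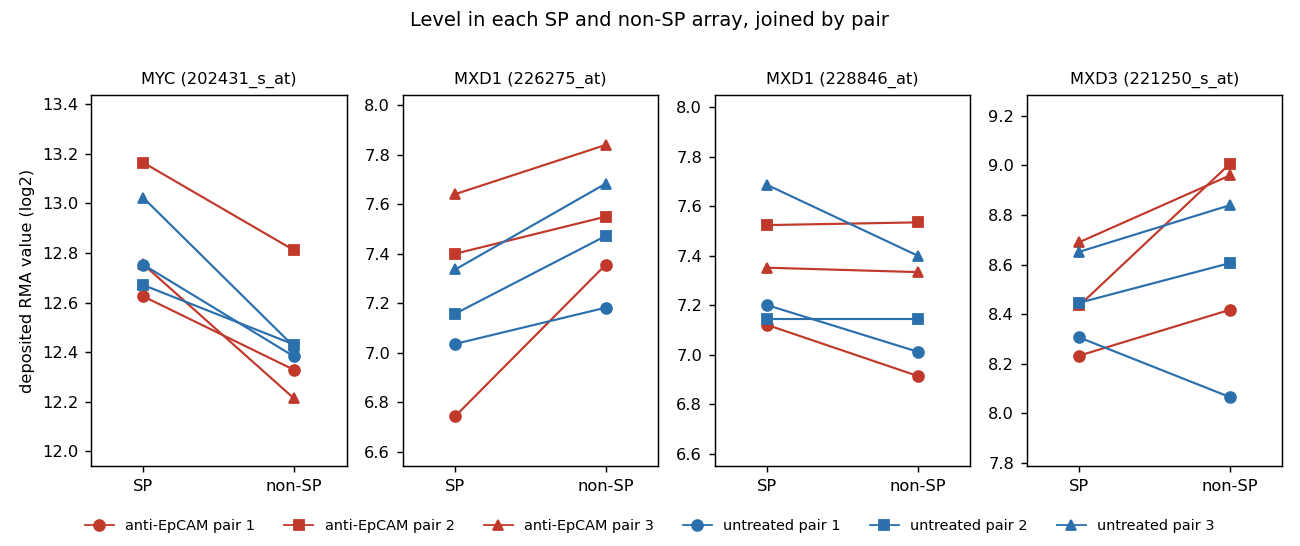
Deposited log2 values of MYC, of 2 MXD1 probe sets and of MXD3 in SP and non-SP arrays, with a line for each of the 6 pairs, red for anti-EpCAM and blue for untreated. All 6 MYC lines run lower from SP to non-SP, all 6 lines of MXD1 226275_at run higher, and the 228846_at lines of the same gene do not follow it.

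MXD1 encodes a MAX partner that recruits SIN3 and represses E-box genes. Its probe set 226275_at read 6.75, 7.40 and 7.64 in anti-EpCAM SP arrays, against 7.36, 7.55 and 7.84 in anti-EpCAM non-SP arrays. Untreated SP arrays read 7.04, 7.16 and 7.34, against 7.18, 7.47 and 7.68 in untreated non-SP arrays. The fractions overlap in both treatments because pairs differ in level, yet SP was lower in each pair, by 0.15 to 0.61, as was true of 4.53% of all probe sets tested. The estimate was -0.29 ± 0.07 (SE, n = 6 pairs; 95% interval -0.47 to -0.12), or 1.23-fold lower in SP, with a limma adjusted p = 0.143, and adjusted p = 0.0563 with 1 probe set per gene.

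The other MXD1 probe sets did not show this difference. Probe set 228846_at had an estimate of 0.11 ± 0.06 (limma adjusted p = 0.441), with SP higher in 4 pairs, lower in 1 and level with non-SP in the remaining pair. Probe set 206877_at was under the filter, with a mean of 4.90, and without the filter it had 0.050 ± 0.082 (limma adjusted p = 0.866). Which transcripts of MXD1 each probe set reads was not determined here, so the lower value belongs to 226275_at and not to the gene as a whole.

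MXD3, a further MAX partner of the MXD family, had 1 probe set. It read 8.23, 8.43 and 8.69 in anti-EpCAM SP arrays, against 8.42, 9.01 and 8.96 in anti-EpCAM non-SP arrays. Untreated SP arrays read 8.31, 8.45 and 8.65, against 8.06, 8.61 and 8.84 in untreated non-SP arrays. SP was lower in 5 of 6 pairs, most in anti-EpCAM pair 2, and higher in untreated pair 1. The estimate was -0.19 ± 0.08 (SE, n = 6 pairs; 95% interval -0.38 to -0.0017; limma adjusted p = 0.347). MXI1, a MAX partner also called MXD2, had -0.072 ± 0.064 (limma adjusted p = 0.656), with SP lower in 5 of 6 pairs by at most 0.20 and higher by 0.18 in anti-EpCAM pair 1.

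MNT is a broadly expressed repressor that shares MAX with MYC. Its brighter probe set 204206_at read 10.60, 10.74 and 10.74 in anti-EpCAM SP arrays, against 10.36, 10.72 and 10.81 in anti-EpCAM non-SP arrays. Untreated SP arrays read 10.80, 10.66 and 10.89, against 10.61, 10.62 and 10.81 in untreated non-SP arrays. The groups overlapped, and the estimate was 0.082 ± 0.060 (SE, n = 6 pairs; 95% interval -0.057 to 0.22; limma adjusted p = 0.578). The second probe set, 236749_at, was under the filter with a mean of 5.02, and had 0.096 ± 0.080 without it (limma adjusted p = 0.703).

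**Figure D2:**
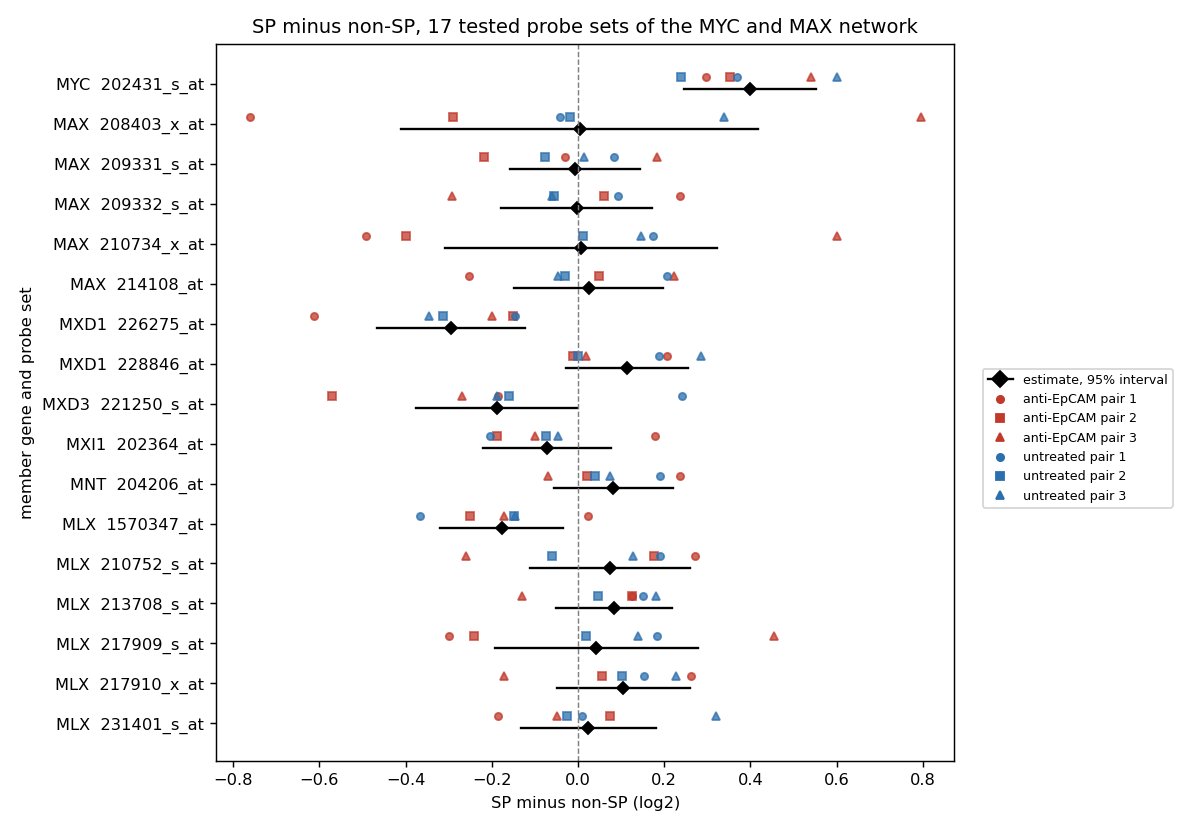
SP minus non-SP on the log2 scale for the 17 tested probe sets, as the estimate with its 95% interval in black and the 6 pairs above it, red for anti-EpCAM and blue for untreated. MYC lies at 0.40 and MXD1 226275_at at -0.29, while the MAX estimates lie near 0 with single pairs of 208403_x_at from -0.76 to 0.80.

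MAX, the shared partner of MYC, the MXD proteins and MNT, showed no common direction. Its 5 probe sets had estimates from -0.0073 to 0.025, with limma adjusted p = 0.914 to 0.995. Their precision differed widely. The brightest, 209332_s_at, had a 95% interval of -0.18 to 0.17, so a difference of the size seen for MYC lies outside it, whereas that of 208403_x_at was -0.41 to 0.42 and holds the MYC estimate of 0.40. The suffix x_at marks a probe set some of whose probes may also match other transcripts.

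For 4 of the 5 MAX probe sets the widest pair differences were those of anti-EpCAM pairs 1 and 3. Probe set 208403_x_at read 5.62, 6.75 and 7.14 in anti-EpCAM SP arrays of pairs 1, 2 and 3, against 6.39, 7.04 and 6.34 in non-SP arrays. SP was thus lower by 0.76 in pair 1 and higher by 0.80 in pair 3. The untreated pairs had differences of -0.042, -0.018 and 0.34. In the same anti-EpCAM pairs 209332_s_at went the other way, with 0.24 in pair 1 and -0.29 in pair 3.

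An RNA quality control moved with these values, and its part in them was not tested. The array's GAPDH control ratio, the 3′ probe set minus the middle one, was 0.30, 0.073 and -0.13 in anti-EpCAM SP arrays, against -0.075, -0.12 and 0.13 in anti-EpCAM non-SP arrays. SP minus non-SP it was 0.38, 0.19 and -0.25 in anti-EpCAM pairs 1, 2 and 3 and -0.11, 0.018 and 0.052 in untreated pairs. Over these pairs the same difference for the actin control was 0.67, -0.015, -1.09, -0.094, -0.21 and -0.27. With the GAPDH ratio as a covariate the residual SD of 208403_x_at was 0.31, against 0.58 without it, and that of 210734_x_at was 0.15, against 0.43. For MLX 217909_s_at it was 0.11, against 0.30, while for MYC it was 0.16 with and without the covariate. The MYC estimate was 0.40 ± 0.06 in that fit (limma adjusted p = 0.0711). The covariate could not move an estimate over all pairs, so the unchanged 0.40 is no test of RNA quality.

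**Figure D3:**
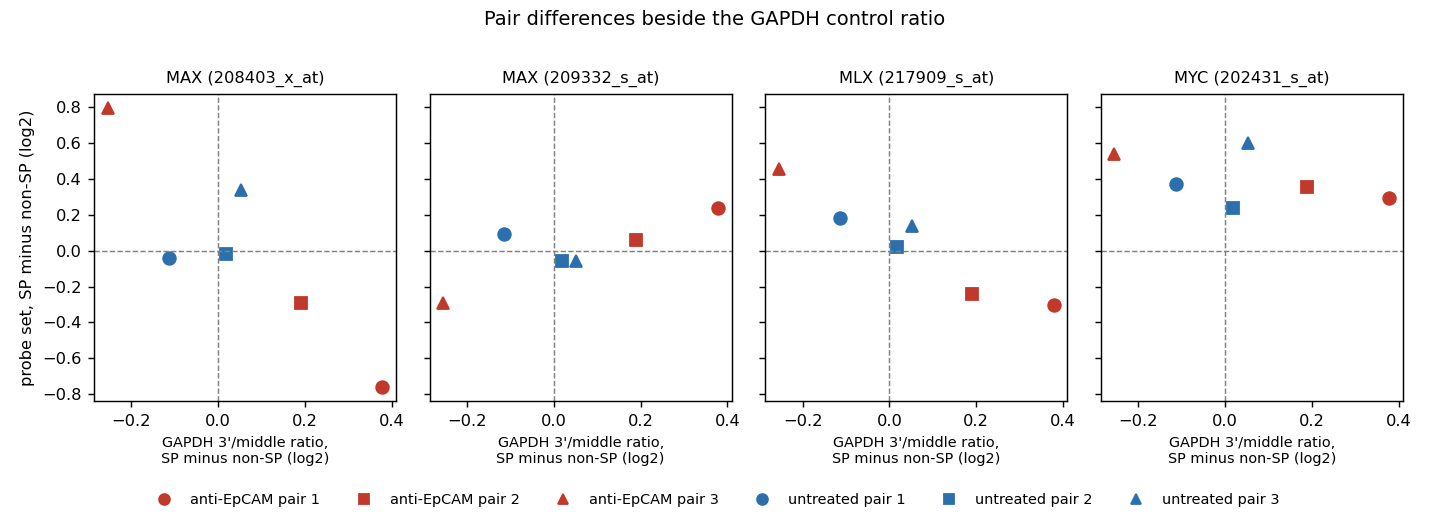
SP minus non-SP of 4 probe sets (y axis, log2) against the SP minus non-SP difference of the GAPDH control ratio (x axis, log2), with 1 point for each of the 6 pairs. MAX 208403_x_at and MLX 217909_s_at fall as the ratio rises, MAX 209332_s_at rises with it, and all 6 MYC points lie above 0, between 0.24 and 0.60.

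MLX, the partner of the glucose-sensing factors, had 6 probe sets, 5 with a positive estimate (0.024 to 0.11) and 1 with a negative one. The brightest, 213708_s_at, read 10.42, 10.56 and 10.50 in anti-EpCAM SP arrays, against 10.29, 10.43 and 10.63 in anti-EpCAM non-SP arrays. Untreated SP arrays read 10.41, 10.29 and 10.63, against 10.26, 10.25 and 10.45 in untreated non-SP arrays. The fractions overlapped, with an estimate of 0.083 ± 0.058 (SE, n = 6 pairs; limma adjusted p = 0.560). The negative one was 1570347_at, with a mean of 6.05, which was lower in SP in 5 of 6 pairs. It had -0.18 ± 0.06 (limma unadjusted p = 0.0214, adjusted p = 0.259). Over all 6 MLX probe sets the limma adjusted p ran from 0.259 to 0.904.

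Next came the question of whether the SP difference depended on the antibody. In anti-EpCAM pairs MYC had 0.40 ± 0.09 (SE, n = 3 pairs; limma adjusted p = 0.334), and in untreated pairs 0.40 ± 0.09 (limma adjusted p = 0.327). Both treatments share the estimate of the spread, so these SEs are equal by design. The difference between the MYC estimates was -0.0067 ± 0.13, with a 95% interval of -0.31 to 0.30 (limma adjusted p = 1.00). For MXD1 226275_at the estimates were -0.32 in anti-EpCAM and -0.27 in untreated pairs. For MXD3 they were -0.34 and -0.036, and the difference of -0.31 ± 0.16 had an unadjusted p = 0.0956 (limma adjusted p = 1.00). By limma 0 of the 17 probe sets passed in anti-EpCAM pairs, in untreated pairs or for the difference between them, where 0% of all probe sets tested passed in each. At an unadjusted p under 0.05 the counts were 3 of 17 in anti-EpCAM pairs, 3 in untreated pairs and 0 for the difference, against 8.34%, 8.46% and 1.59% of all.

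The antibody itself was then compared. Since value distributions differed between pairs, this comparison used quantile normalised values and the mean of each pair, 3 anti-EpCAM against 3 untreated. By limma 0 of 17 probe sets passed (0% of all tested), and 1 of 17 had an unadjusted p under 0.05, against 1.71% of all. MYC averaged 12.81 ± 0.18 in anti-EpCAM SP and 12.82 ± 0.07 in untreated SP arrays (SD, n = 3 each). It averaged 12.42 ± 0.21 in anti-EpCAM non-SP and 12.45 ± 0.11 in untreated non-SP arrays. Both SP groups therefore stand above both non-SP groups, and within a fraction the treatments differ by less than the SD. The antibody difference for MYC was -0.019 ± 0.13 (SE, 95% interval -0.34 to 0.30; limma adjusted p = 1.00), and 0.036 with the values as deposited.

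The probe sets of MAX disagreed on the antibody. MAX 209331_s_at averaged 8.03 ± 0.09 in anti-EpCAM SP and 7.68 ± 0.28 in untreated SP arrays, and 8.04 ± 0.12 in anti-EpCAM non-SP and 7.67 ± 0.22 in untreated non-SP arrays (SD, n = 3 each). Its difference of 0.36 ± 0.15 was the one with an unadjusted p under 0.05 (0.0473; limma adjusted p = 1.00). MAX 214108_at had -0.32 ± 0.17, and the other MAX probe sets 0.050 to 0.13. The remaining members had antibody differences from -0.15 to 0.14, each with a limma adjusted p = 1.00.

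**Figure D4:**
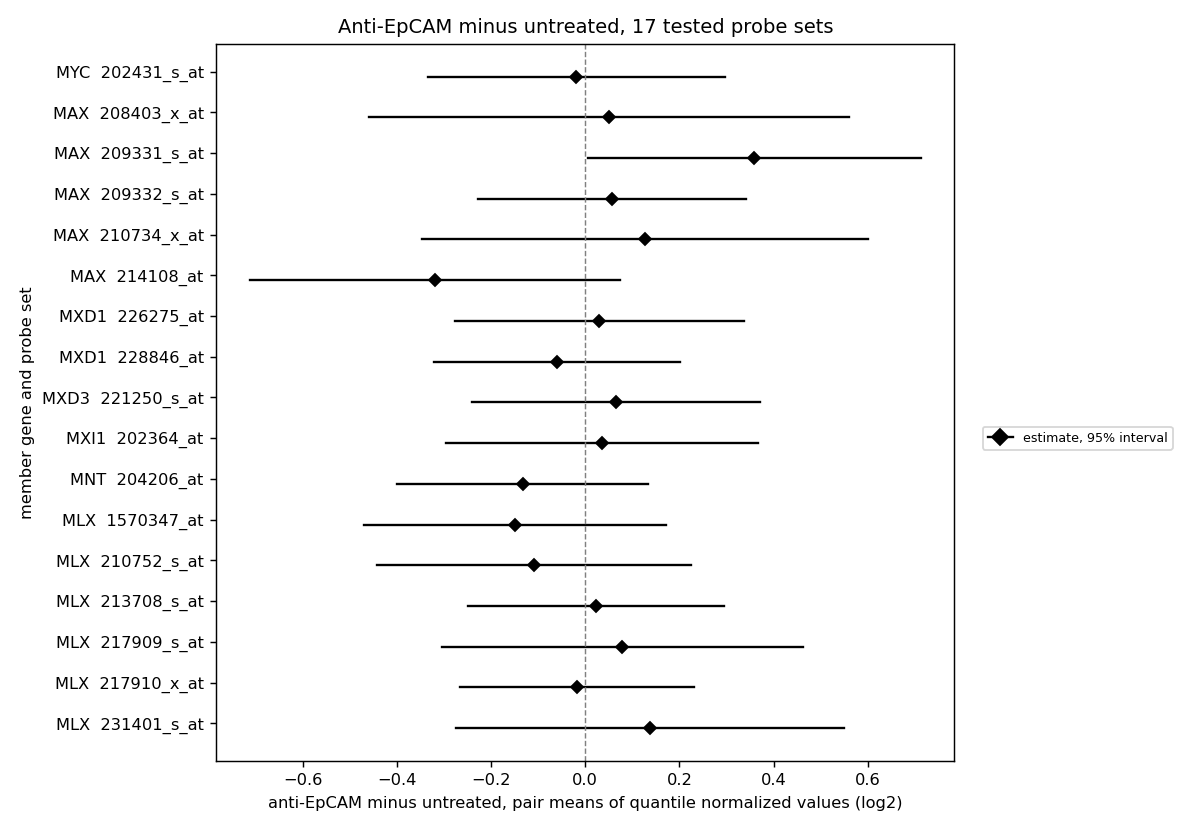
Anti-EpCAM minus untreated for the 17 tested probe sets, on the log2 scale over pair means of quantile normalised values, with 95% intervals. The MYC estimate is -0.019, and the MAX probe sets lie on both sides of 0, from -0.32 to 0.36.

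Genes around the network were then counted by each gene's brightest tested probe set, for which 0.464% of all 14649 genes passed over the 6 pairs and 13% had an unadjusted p under 0.05. Their median difference was 0.0056 on the log2 scale, and 52.4% of them had a higher estimate in SP. These lists were set with earlier results of these arrays known.

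Of 5 other network genes, MYCN, MYCL, MGA, MLXIP and MLXIPL, 0 passed and 4 had a higher estimate in SP, with a median of 0.078. MGA, a MAX partner that represses as part of a Polycomb complex, had 0.16 ± 0.07 (limma adjusted p = 0.368), and MYCN, the neural relative of MYC, 0.14 ± 0.07 (limma adjusted p = 0.423). MLXIPL had -0.080 ± 0.059 and MYCL, a further relative of MYC, 0.078 ± 0.078.

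Of 14 tested genes of MYC turnover and cofactors, 0 passed, 8 had a higher and 6 a lower estimate, and the median was 0.046. The acetyltransferase KAT2A had -0.17 ± 0.07 (limma adjusted p = 0.307) and CIP2A, an inhibitor of the phosphatase that destabilises MYC, had 0.14 ± 0.06 (limma adjusted p = 0.325). WDR5, which tethers MYC to chromatin, had -0.11, and RUVBL1, an ATPase of MYC-bound complexes, 0.11. Of 7 tested corepressor genes 0 passed. SIN3A and SIN3B, scaffolds for the repressors of the family, had opposite estimates, 0.26 ± 0.06 with SP higher in 6 of 6 pairs (limma adjusted p = 0.120) and -0.21 ± 0.08 with SP lower in 5 of 6 (limma adjusted p = 0.302). With 1 probe set per gene SIN3A passed.

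Of 15 tested ribosome biogenesis genes known to be activated by MYC, 0 passed, 10 had a higher estimate in SP and 5 a lower one, and the median was 0.020. The lowest p values were those of WDR43 (0.19 ± 0.06, limma adjusted p = 0.226), RRS1 (0.16 ± 0.06) and NOP58 (0.15 ± 0.05), all with a part in ribosome assembly, and of NOP16 (-0.082 ± 0.053). Of 18 tested metabolic and growth genes known to be activated by MYC, 0 passed and 14 had a higher estimate, with a median of 0.038. TERT, the telomerase subunit, had 0.30 ± 0.06, higher in 6 of 6 pairs (limma adjusted p = 0.0924), and it passed with 1 probe set per gene. PPAT, the first enzyme of purine synthesis, had 0.15 ± 0.08, the glycolytic enzyme ENO1 0.11 ± 0.06 and the cap-binding protein EIF4E 0.24 ± 0.16.

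Of 10 tested genes known to be repressed by MYC, 0 passed, 6 had a higher estimate in SP and 4 a lower one, and the median was 0.059. The matrix protein THBS1 had 0.19 ± 0.07 and NDRG1, a differentiation and stress gene, 0.20 ± 0.07 (limma adjusted p = 0.281 and 0.285). The growth arrest gene GADD45B had 0.13 ± 0.06 and the chaperone CLU 0.23 ± 0.11.

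The gene of these lists that passed was ARRDC4, an arrestin-domain gene activated by MLX with MondoA, which was lower in SP. It read 6.44, 7.38 and 7.43 in anti-EpCAM SP arrays, against 6.85, 7.83 and 8.32 in anti-EpCAM non-SP arrays. Untreated SP arrays read 6.47, 6.36 and 7.70, against 7.19, 7.17 and 8.47 in untreated non-SP arrays. SP was lower in 6 of 6 pairs, by 0.41 to 0.89, although levels between pairs differed more than the fractions did. It fell by 0.68 ± 0.07 log2 units (SE, n = 6 pairs), so that non-SP was 1.60-fold higher, with a limma adjusted p = 0.0174. The call was lost without anti-EpCAM pair 2 (adjusted p = 0.0869), untreated pair 1 (0.0689), untreated pair 2 (0.0607) or untreated pair 3 (0.0994), with estimates of -0.71, -0.69, -0.67 and -0.67. It was also lost with the 12 arrays taken as independent and no replicate block (adjusted p = 1.00) or with an intensity trend (adjusted p = 0.286). With the GAPDH ratio as a covariate, which could not move the estimate, the call remained (limma adjusted p = 0.0245).

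TXNIP, the other best known target of MLX with MondoA and an inhibitor of glucose uptake, did not pass. Its probe set 201010_s_at read 5.94, 7.58 and 7.60 in anti-EpCAM SP arrays, against 5.80, 7.52 and 7.85 in anti-EpCAM non-SP arrays. Untreated SP arrays read 6.09, 6.69 and 7.42, against 6.31, 6.66 and 7.97 in untreated non-SP arrays. SP was lower in 3 pairs and higher in 3, with -0.13 ± 0.09 (limma adjusted p = 0.546), and 201009_s_at had -0.14 ± 0.09 (limma unadjusted p = 0.138). The transcription factors KLF10 (0.13 ± 0.06) and HBP1 (0.089 ± 0.067) did not pass either, so 1 of 4 tested genes of this list fell.

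**Figure D5:**
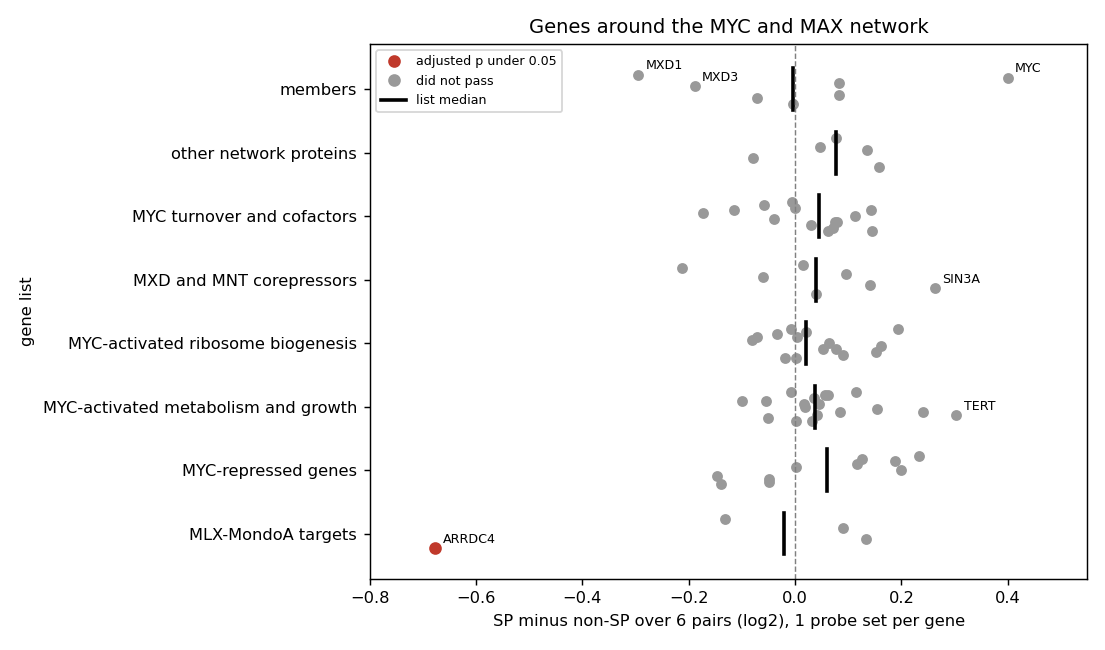
SP minus non-SP over 6 pairs on the log2 scale for the genes of 8 lists, 1 point per gene by its brightest tested probe set, with a bar at each list's median and red for an adjusted p under 0.05. ARRDC4 at -0.68 is the red point, and the list medians lie between -0.021 and 0.078.

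Over the 12 quantile normalised arrays the genes whose pattern was most like that of MYC, by Pearson r, were DUSP10 (0.95), a MAP kinase phosphatase, ZNF227 (0.93), the early-response factor EGR1 (0.92), the phosphatase PPM1D (0.91) and ZNF567 (0.91). EGR1 passed over the pairs, at 0.53 ± 0.07 (limma adjusted p = 0.0261). This call was lost with no replicate block, with an intensity trend, without anti-EpCAM pair 2 and without untreated pair 3. In each of these fits 0 probe sets passed. Whether EGR1 passed in the other fits is not given here. ZNF567 had 0.39 ± 0.08 (limma adjusted p = 0.0861). Each other member was taken by its brightest tested probe set only. MXD1 228846_at, which had a positive SP estimate (0.11 ± 0.06), therefore has no r here. Among the probe sets taken, MXD1 226275_at had an r of -0.82 with MYC and MXD3 one of -0.60. MXI1 and MAX had -0.43 and -0.41, and MNT and MLX had 0.029 and 0.011. These values are descriptions over 12 arrays that share 6 pairs and the SP and non-SP contrast, so the genes named for likeness to MYC are no separate evidence of its difference.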

How the data were processed

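The authors deposited log2 values for each probe set. RMA is named in the submitters' processing notes, and its version and the arrays it was run on together are not given in the sources used here. The 6 pairs rest on the data: sorted values differed by 0.00930 to 0.0213 within pairs, against 0.0461 to 0.524 elsewhere. Deviations from group means correlated with r of 0.52 to 0.86 within pairs and -0.83 to 0.68 elsewhere, ranges that overlap. The labels do not say that a pair is 1 sort, so shared sort and shared processing cannot be told apart. Across treatments, arrays of the same fraction and number had r of 0.63 and 0.66 (SP and non-SP) for number 1 and 0.57 and 0.48 for number 3, but -0.36 and -0.20 for number 2, so treatments were not paired.

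Names came from the probe table, updated by gene identifier. Control probe sets (62) were left out, and 32768 probe sets with a mean above the 40th percentile (5.39) were tested. Within-pair differences, and for the antibody pair means of quantile normalised values, were fitted with limma 3.58.1 in R 4.3.3, two-sided, with Benjamini-Hochberg adjustment over all probe sets. A probe set passed under 0.05. Fits were tested on simulated data. Members and lists were chosen with earlier results of these data known. At most 4 genes of smallest p were named from each list. Alternatives covered pairing, normalization, filter, probe sets per gene, variance trend, the GAPDH ratio and left-out pairs. Pairs were taken as independent, although numbers 1 and 3 deviate together across treatments, and the number of arrays limits precision.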

Additional observations from a re-analysis of the deposited data

How the results depend on the processing

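The count of probe sets passing for SP against non-SP was 210 of 32768. It was 0 with no replicate block, 0 with an intensity trend, 362 of 14649 with 1 probe set per gene and 133 with the GAPDH ratio as a covariate. Leaving out 1 pair gave 0 to 322. In anti-EpCAM cultures the count was 322 with pair 1 removed, 0 with pair 2 removed and 11 with pair 3 removed, and in untreated cultures 10, 22 and 0. A setting chosen after seeing the data, which removed both anti-EpCAM pairs 1 and 3, gave 0, and MYC then had 0.38 ± 0.09 (limma adjusted p = 0.155). In anti-EpCAM pairs the count of 0 became 1 without the filter and 36 with 1 probe set per gene, and in untreated pairs it became 14 with 1 probe set per gene. For the antibody, a replicate block on number left the count at 0. COL1A1, a fibroblast marker, had -0.57 (limma adjusted p = 0.0483) and lost the call when any 1 pair was left out, with estimates of -0.66 to -0.48.

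Some estimates near 0 changed sign and none of these passed. Without 1 pair, MAX 208403_x_at ran from -0.22 to 0.17, 209331_s_at from -0.059 to 0.042, 209332_s_at from -0.062 to 0.071, 210734_x_at from -0.17 to 0.11 and 214108_at from -0.030 to 0.089. MLX 217909_s_at ran from -0.078 to 0.11 and 231401_s_at from -0.030 to 0.058. Without both anti-EpCAM pairs 1 and 3, 208403_x_at had -0.099, 209332_s_at 0.026, 210734_x_at -0.14 and 217909_s_at -0.063. Quantile normalization gave MAX 209331_s_at 0.0049. For MYC the difference between treatments ran from -0.088 to 0.092 without 1 pair, and was 0.016 after quantile normalization and 0.031 with the GAPDH ratio. Its antibody difference ran from -0.13 to 0.068 without 1 pair and was 0.036 as deposited. The cause was not tested. The SP estimates of the tested MYC, MXD3, MXI1 and MNT probe sets kept their direction after quantile normalization and whenever pairs were left out. Both tested MXD1 probe sets did so too (226275_at lower and 228846_at higher in SP). The other settings (block, filter, probe sets per gene, variance trend, GAPDH ratio) could not move these estimates over all pairs, so they did not test direction.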
